A study of Mus musculus with 3 samples.

Results

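The natriuretic peptide system was followed in the mouse heart ventricle through the genes of its 3 peptides (Nppa, Nppb and Nppc), its 3 receptors (Npr1, Npr2 and Npr3) and Corin, the protease that cuts the Nppa precursor. Members were chosen by gene name in the deposited annotation of assembled transcripts. This gave 8 of the 48626 loci of the expression table, which were 1 locus for each of the 7 genes and an additional unspliced locus on the strand opposite to Corin. Total RNA of C57BL/6 ventricles was sequenced from embryos at E10.5 and E13.5, which are days of gestation, and from adults of 8 weeks, and the labels name no altered allele and no treatment. A stranded total RNA kit was used, with 1 paired-end library per stage. How many hearts were combined in a library is not given in the sources used here. With no replicates there is no spread to set a difference against, so values are described and no p-value is given.

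Natriuretic peptides are hormones that are made as longer precursors. Nppa encodes atrial natriuretic peptide (ANP), Nppb encodes B-type natriuretic peptide (BNP) and Nppc encodes C-type natriuretic peptide (CNP). ANP and BNP act through the receptor guanylyl cyclase Npr1, and CNP acts through the related cyclase Npr2. Both receptors make cyclic GMP, which lowers vascular tone and restrains growth of the heart. Npr3 binds all these peptides, has no cyclase domain and removes them by internalisation. Ventricular muscle of the embryo is known to make ANP, while after birth most ANP comes from the atria, and Corin on the surface of cardiomyocytes turns the ANP precursor into the active hormone.

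Levels are FPKM, the number of sequenced fragments scaled to exon length and to the size of the library, so that levels of different genes can be set side by side. From the smallest steps between values, 1 FPKM over 1 kb of exon corresponded to about 13.6 fragments at E10.5 and 24.2 at E13.5, against 13.6 in the adult. Heart muscle was checked with 6 cardiomyocyte genes, which were not chosen to separate atrium from ventricle. They summed to 7650.2 FPKM at E10.5 and 10547 at E13.5, compared with 11342 in the adult, with none listed at 0. Changes are differences of log2(FPKM + 1), a scale that understates the change of low genes, and a change is called at 2 or more on that scale. Among the 12569 mRNA loci that reached 1 FPKM in any library, the median change was 0.17 from E10.5 to E13.5, -0.50 from E13.5 to the adult and -0.40 from E10.5 to the adult. In ventricle tissue as a whole, fewer cells of a type and less RNA per cell cannot be told apart.

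The peptides share a ring closed by a disulphide bond between a pair of cysteines, the part that the receptors bind. The stretches of the genome that code for it in Nppb and Nppc are shown because Nppb was the leading peptide transcript of the adult and Nppc was barely detected, although their rings are alike. Both come from RefSeq on GRCm38.p6 and lie in the second coding exon of their gene. They span chr4:147986464-147986514 on the plus strand for Nppb and chr1:86669667-86669717 on the minus strand for Nppc. Capitals mark the bases that both genes share, and the first and last codon of each line are the cysteine codons.
Nppb ring: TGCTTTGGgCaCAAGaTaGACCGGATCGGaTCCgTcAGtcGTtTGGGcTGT
Nppc ring: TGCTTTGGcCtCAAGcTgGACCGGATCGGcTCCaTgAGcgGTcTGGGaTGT
Of the 51 bases, 40 are the same in both genes (78.4%). After the ring, the reading frame goes on for 6 codons in Nppb and stops at once in Nppc.

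Nppa and Nppb, the ligand genes of cardiomyocytes, were both abundant in the embryonic ventricle, and of these only Nppa changed past 2 between either embryonic stage and the adult. Nppa (chr4:148000272-148009127, plus strand) stood at 1744 FPKM at E10.5 and 2385 FPKM at E13.5, against 37.9 FPKM in the adult. Nppa ranked 12 among all mRNA loci at E10.5 and 9 at E13.5, against 1332 in the adult. From E13.5 to the adult, Nppa fell by 5.94 on the log2 scale, a level 63.0-fold lower. From E10.5 to the adult it fell by 5.49, and 0.414% of the 12569 mRNA loci fell further. Its adult level still rested on about 426 fragments, so that the transcript was low and not missing.

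Nppb (chr4:147985237-147987205, plus strand) kept nearly the same level at all stages, with 182 FPKM at E10.5 and 271 FPKM at E13.5, compared with 197 FPKM in the adult. Its change was 0.57 from E10.5 to E13.5, -0.46 from E13.5 to the adult and 0.11 from E10.5 to the adult. The sign of the step from E13.5 to the adult rests on the scaling of the libraries, since it became 0.11 when they were scaled by median-of-ratios. The ratio of Nppa to Nppb was 9.57 at E10.5 and 8.81 at E13.5, against 0.192 in the adult, so the order of both transcripts turned. Nppb made up 9.46% of the summed peptide transcripts at E10.5 and 10.2% at E13.5, compared with 83.9% in the adult. These ratios are taken within a library and do not depend on its scaling.

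Nppc (chr1:86666293-86670573, minus strand), the CNP gene, was listed at 0 at E10.5 and in the adult and at 0.598 FPKM at E13.5. That value corresponds to about 15.1 fragments, and no fold was computed for this gene. CNP is known as an endothelial ligand, and endothelial genes were present in all libraries, as given with the receptors. Its receptor gene Npr2 was thus measured without more than a trace of the transcript of its main ligand.

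Nppa and Nppb lie next to each other on chromosome 4, with 13066 bp between the assembled loci, 14957 bp between the RefSeq starts in the deposited annotation and 0 other loci between them. Their changes therefore parted within a short stretch of the genome. The 250 bases before each RefSeq start on GRCm38.p6 are shown because these neighbours differed in their change between E13.5 and the adult. Capitals mark matches, on either strand, to 4 motifs of factors known to act on peptide genes. These are GATAA (GATA factors), TNAAGTG (NK-2 factors such as Nkx2-5), GGTGTG (T-box factors) and CATTCC (TEAD factors). The Nppa window is chr4:148000472-148000721 and the Nppb window is chr4:147985650-147985899, both on the plus strand.
Nppa promoter: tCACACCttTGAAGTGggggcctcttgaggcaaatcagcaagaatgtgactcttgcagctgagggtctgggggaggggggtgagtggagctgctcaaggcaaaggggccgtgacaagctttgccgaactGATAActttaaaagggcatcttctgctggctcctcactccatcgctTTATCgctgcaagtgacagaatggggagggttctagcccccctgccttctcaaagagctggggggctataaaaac
Nppb promoter: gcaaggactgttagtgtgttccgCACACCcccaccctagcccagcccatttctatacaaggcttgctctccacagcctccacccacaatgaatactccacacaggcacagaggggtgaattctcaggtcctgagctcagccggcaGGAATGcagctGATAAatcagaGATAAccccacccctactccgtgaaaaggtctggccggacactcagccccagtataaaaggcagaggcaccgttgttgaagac
GATAA occurs in both windows, 121 and 75 bases before the start of Nppa and 94 and 83 bases before the start of Nppb, counted to the farther end of each match. GGTGTG also occurs in both. TNAAGTG occurs in the Nppa window and CATTCC in the Nppb window. Of 32851 promoter windows of the same length, 22.6% hold GATAA, 16.3% hold GGTGTG, 12.6% hold CATTCC and 10.1% hold TNAAGTG. Among the other members, the Corin window holds GGTGTG and the windows of Nppc, Npr1, Npr2 and Npr3 hold none of the 4. A match is a description of letters and not a site or a cause. The assembled transcripts start 474 bp (Nppa) and 552 bp (Nppb) before the RefSeq starts of the deposited annotation. The deposited RefSeq start of Nppb lies inside the Nppb window, and the GATAA and CATTCC matches of Nppb lie after it. Their places before the start thus hold only for the GRCm38.p6 start.

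The Nppa locus holds 2 assembled transcripts, the longer of which runs 7060 bp past the RefSeq end into Clcn6, a chloride transporter gene on the other strand. Clcn6 stood at 7.02 FPKM (E10.5), 3.72 FPKM (E13.5) and 3.87 FPKM (adult), below Nppa in every library. How the fragments of the locus were divided between its transcripts is not stated, which matters for the length in its FPKM.

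**Figure D1:**
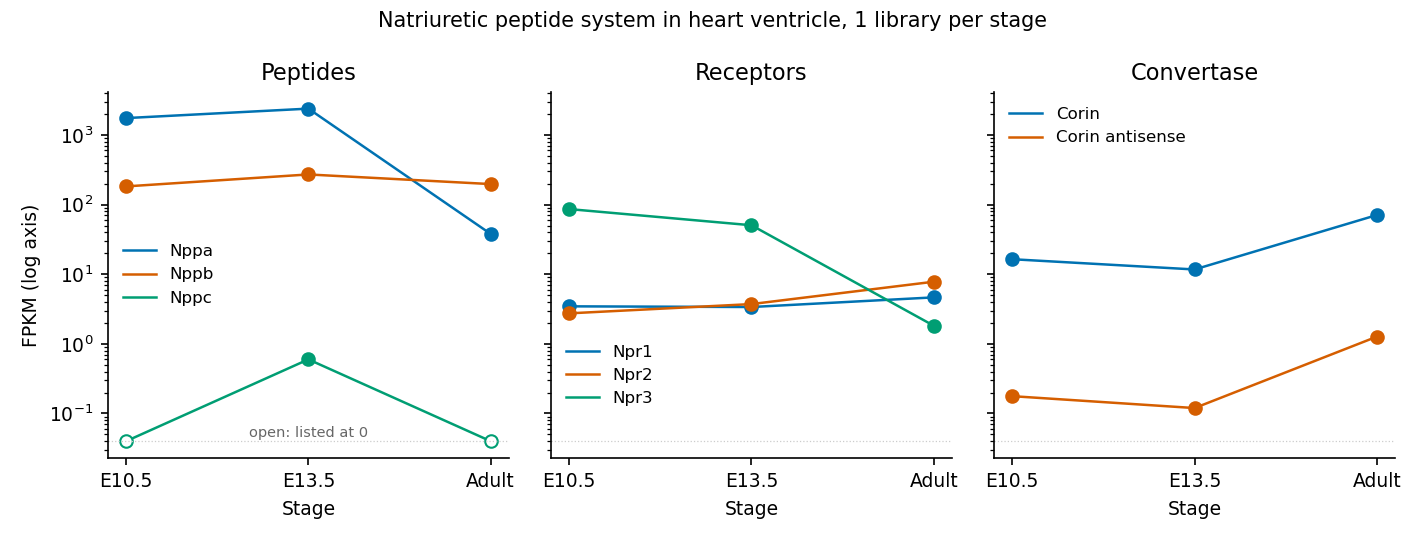
FPKM of the 7 genes and the Corin antisense locus on a log axis, by stage, with 1 point per library and open points for values listed at 0. Nppa and Npr3 end far below their embryonic levels, Corin ends above them, and Nppb, Npr1 and Npr2 stay closer to where they began.

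Genes listed as atrial or trabecular markers fell together with Nppa. Of 4 atrial genes (Myl7, Myl4, Sln and Bmp10), 4 fell past 2 from E10.5 to the adult, where 8.10% of mRNA loci fell. Their summed level was 4696 FPKM at E10.5 and 4408 FPKM at E13.5, against 3.09 FPKM in the adult. Of 4 trabecular genes (Bmp10, Cited1, Gja5 and Irx3), 3 fell past 2 in the same comparison. Their sum was 457 FPKM, 497 FPKM and 4.54 FPKM in the same order, and Bmp10 is in both lists. At E10.5 most of the atrial sum came from Myl7 (2453 FPKM) and Myl4 (2164 FPKM). Whether these transcripts came from atrial muscle was not tested. No gene of either list was listed at 0, and the part of these lists in the change of Nppa was not tested. Cardiomyocyte genes as a whole did not fall with it. Per 100 FPKM of the geometric mean of the 6 cardiomyocyte genes, Nppa stood at 276 at E10.5 and 331 at E13.5, compared with 2.84 in the adult, and Nppb stood at 28.8, 37.5 and 14.8. That base itself rose from 632 FPKM at E10.5 to 1334 FPKM in the adult. From E10.5 to the adult, 5 of its genes rose and 1 (Actc1) fell.

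Corin, the convertase of the ANP precursor, moved against its substrate. Corin (chr5:72299877-72504847, minus strand) stood at 16.4 FPKM at E10.5 and 11.7 FPKM at E13.5, against 70.8 FPKM in the adult. It rose by 2.50 from E13.5 to the adult, a level 6.05-fold higher, and 2.59% of mRNA loci rose further. From E10.5 to the adult the change was 2.04, close to the limit of 2, and 5.39% of mRNA loci rose further. The ratio of Nppa to Corin was 106 at E10.5 and 204 at E13.5, compared with 0.535 in the adult. Against the geometric mean of the cardiomyocyte genes, a base that itself rose, the difference was smaller. Corin stood at 2.59 per 100 FPKM at E10.5, at 1.62 at E13.5 and at 5.31 in the adult, which is 2.05-fold above E10.5.

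The additional locus lies across the start of Corin on the opposite strand (chr5:72504112-72505281, plus strand, 1170 nt, no intron). It overlaps the Corin locus by 736 nt and Corin exons by 574 nt. It was listed at 0.177 FPKM at E10.5 and 0.120 FPKM at E13.5, against 1.27 FPKM in the adult, which corresponds to about 2.81, 3.39 and 20.1 fragments. Relative to Corin its level was 0.0108, 0.0102 and 0.0179, so it was a small share of the sense transcript in all libraries. Unspliced loci were higher in the adult library in general, since of the 2429 unspliced loci antisense to a gene, 65.0% had their adult value above that of E10.5 and 85.3% above that of E13.5. Whether the counting used strand is not stated, so reads of Corin and of its antisense locus may not be fully separated.

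The receptor transcripts changed from almost all Npr3 in the embryo to mostly cyclase receptors in the adult. Npr3 (chr15:11837057-11907134, minus strand), the clearance receptor, stood at 86.1 FPKM at E10.5 and 50.4 FPKM at E13.5, compared with 1.82 FPKM in the adult. It fell by 4.19 from E13.5 to the adult, where its level was 27.7-fold lower, and 1.28% of mRNA loci fell further. From E10.5 to the adult it fell by 4.95, a level 47.3-fold lower, and 0.541% of mRNA loci fell further. Between the embryonic stages its change was -0.76, below the limit of 2, and 8.32% of mRNA loci fell further. The adult value rested on about 171 fragments.

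Npr2 (chr4:43631515-43651744, plus strand), the CNP receptor, stood at 2.74 FPKM at E10.5 and 3.72 FPKM at E13.5, against 7.80 FPKM in the adult. Between E10.5 and the adult its change was 1.23, a level 2.85-fold higher that did not reach the limit, and 11.9% of mRNA loci rose further. Npr1 (chr3:90450592-90465898, minus strand), the ANP and BNP receptor, stood at 3.46 FPKM, 3.38 FPKM and 4.65 FPKM in the same order, and its adult level differed from that at E10.5 by 0.34 on the log2 scale. Between E10.5 and E13.5 its change was -0.03 as deposited and ranged from -0.34 to -0.03 over the scalings. The cyclase receptors together stood at 6.20 FPKM at E10.5 and 7.10 FPKM at E13.5, compared with 12.4 FPKM in the adult.

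As a share of the receptor transcripts within a library, Npr3 made up 93.3% at E10.5 and 87.7% at E13.5, against 12.8% in the adult. The share of Npr2 was 2.97%, 6.47% and 54.7%, and that of Npr1 was 3.75%, 5.87% and 32.6%. For each FPKM of cyclase receptor there were 13.9 FPKM of Npr3 at E10.5 and 7.10 at E13.5, compared with 0.146 in the adult. The receptor sum itself was 92.3 FPKM at E10.5 and 57.6 FPKM at E13.5, against 14.3 FPKM in the adult, a decline that came from Npr3, since the cyclase receptors together were higher in the adult. In RefSeq the coding sequence of Npr3 has 1611 nt, against 3174 nt for Npr1 and 3144 nt for Npr2, the difference being the cyclase and kinase-like parts that Npr3 lacks.

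**Figure D2:**
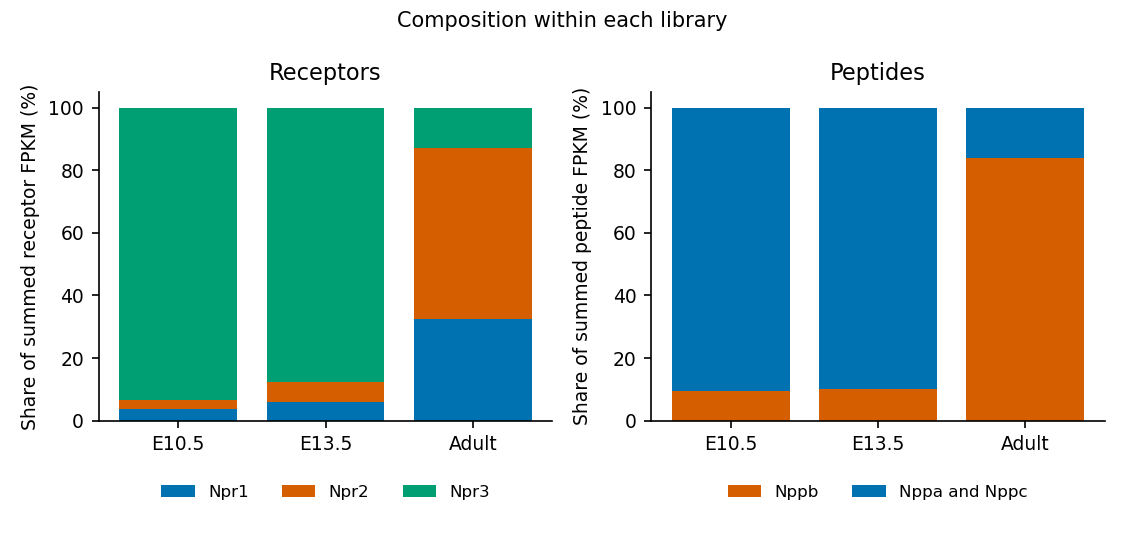
Shares of the receptor transcripts (left) and of the peptide transcripts (right, Nppb against Nppa and Nppc together) in each library, in percent of their summed FPKM. Npr3 fills 93.3% of the receptor bar at E10.5 and 12.8% in the adult, and Nppb fills 9.46% of the peptide bar at E10.5 and 83.9% in the adult.

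Npr3 is known from the endocardium, the endothelium that lines the heart chambers. Of 7 endothelial and endocardial genes, 0 changed past 2 in either direction between any stages. From E10.5 to the adult 5.59% of mRNA loci rose and 8.10% fell, so a count of 0 lies near the background. The summed level of the 7 genes was 306 FPKM at E10.5 and 218 FPKM at E13.5, compared with 287 FPKM in the adult. Per 100 FPKM of their geometric mean, Npr3 stood at 214 at E10.5 and 214 at E13.5, against 6.03 in the adult, so its fall was 35.4-fold on this scale. Within that list Nfatc1, an endocardial factor, stood at 15.6, 4.44 and 3.93 FPKM, and Emcn at 68.3, 63.8 and 57.8 FPKM. Cdh5 stood at 50.2, 12.9 and 47.2 FPKM, and Kdr at 48.1, 20.3 and 61.9 FPKM. From E10.5 to E13.5, 6 of the 7 genes fell and 1 rose, and their geometric mean went from 40.3 to 23.6 FPKM. The equal embryonic values of Npr3 on this scale thus reflect a base that fell as well. Of 4 epicardial genes, 3 fell past 2 from E10.5 to the adult, where 8.10% of mRNA loci fell, and their sum was 109, 105 and 14.8 FPKM. No epicardial gene was listed at 0, and their part in the fall of Npr3 was not tested.

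For the cyclase receptors the same scale was taken against fibroblast genes (Npr2) and smooth muscle and pericyte genes (Npr1). Per 100 FPKM of the geometric mean of 6 fibroblast genes, Npr2 stood at 9.97 at E10.5 and 6.83 at E13.5, compared with 29.6 in the adult. The summed level of these genes was 244, 465 and 501 FPKM, but 1 of them (Dcn) rose and 1 (Tcf21) fell past 2 from E10.5 to the adult. In that comparison 5.59% of mRNA loci rose and 8.10% fell. Per 100 FPKM of 6 smooth muscle and pericyte genes, Npr1 stood at 15.6, 6.79 and 14.3. That list was itself mixed, with 2 genes higher and 2 lower past 2 from E10.5 to the adult, beside the same shares of mRNA loci. It therefore gives a weak base for Npr1.

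Downstream of Npr3, a run of unspliced loci that match no RefSeq transcript lay on the same strand. Within 40 kb past the Npr3 end, a window chosen after its values were seen, there were 8 such loci. Of these, 7 were highest at E10.5 and began from 168 bp to 18224 bp past the end of Npr3. Their levels ranged from 0.638 to 3.11 FPKM at E10.5 (median 1.41), from 0 to 0.254 at E13.5 (median 0.0500) and from 0 to 0.151 in the adult (median 0.0198). The remaining locus, 33415 bp past the end, stood at 0.140, 0.0822 and 1.71 FPKM and so was highest in the adult. Among all 22805 unspliced loci without a RefSeq match, 23.5% were highest at E10.5.

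Together the 7 loci held about 229.8 fragments at E10.5 and 13.6 at E13.5, against 7.72 in the adult. Their median was 1.64% of the Npr3 level at E10.5 and 0.0991% at E13.5. For the adult library this share was 1.09%, not far below that of E10.5. It sets a median of 0.0198 FPKM against 1.82 FPKM of Npr3 and rests on the 7.72 fragments named above. A high value at E10.5 is part of how these 7 loci were picked, so their difference between stages is a description. The median of all 22805 unspliced loci without a RefSeq match was 0.165 FPKM at E10.5 and 0.0688 FPKM at E13.5, against 0.768 FPKM in the adult. Whether these fragments belong to long Npr3 transcripts or to separate ones was not tested.

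**Figure D3:**
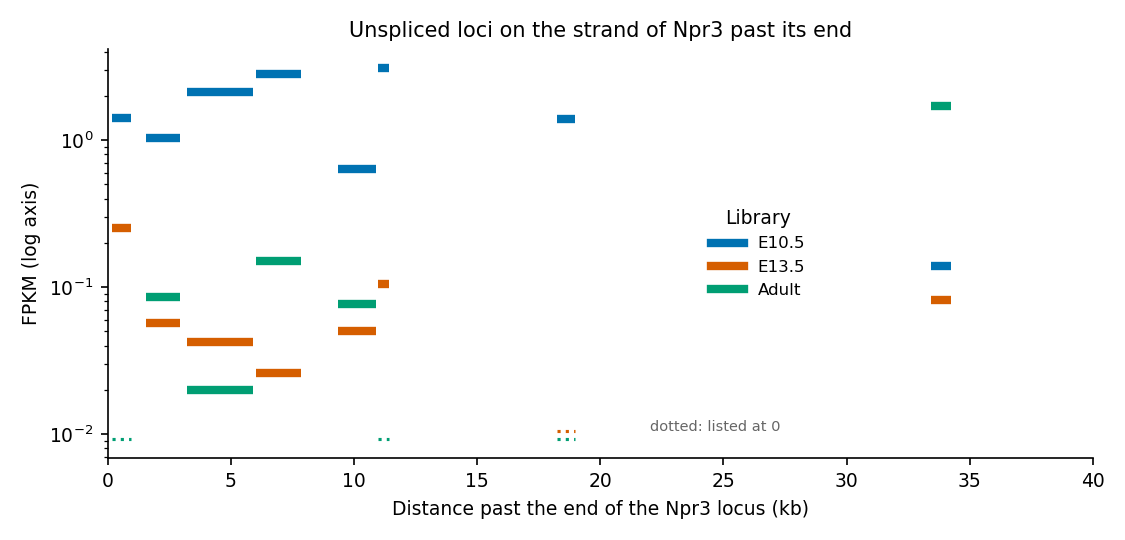
FPKM of the unspliced loci past the Npr3 end on its strand, on a log axis, drawn as bars from their near to their far end in kb past Npr3, coloured by library and dotted where listed at 0. The 7 loci nearest to Npr3 lie between 0.638 and 3.11 FPKM at E10.5 and at or below 0.254 FPKM in the other libraries.

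Counted over the set, 6 of the 7 genes had a change, since Nppc was listed at 0 at E10.5 and in the adult. From E10.5 to E13.5, 0 rose and 0 fell past 2, where 0.851% of mRNA loci rose and 0.247% fell. From E13.5 to the adult, 1 rose (Corin) and 2 fell (Nppa and Npr3), where 4.41% of mRNA loci rose and 9.88% fell. From E10.5 to the adult, the same genes passed in the same directions, where 5.59% of mRNA loci rose and 8.10% fell. The median change of the 6 genes was 0.16, -0.05 and 0.23 in these comparisons, beside 0.17, -0.50 and -0.40 for all mRNA loci. The comparisons with the adult share the adult library and are not independent of each other.

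**Figure D4:**
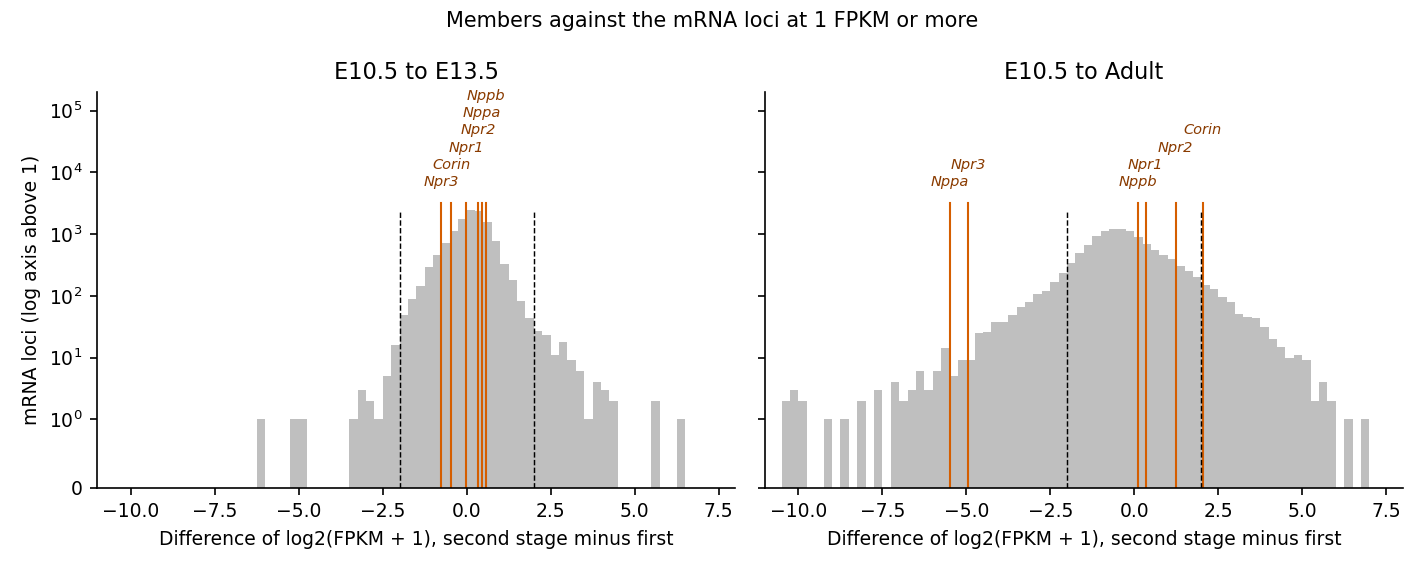
Changes from E10.5 to E13.5 (left) and to the adult (right) as differences of log2(FPKM + 1), with orange lines for the genes with a value, grey bars for the number of the 12569 mRNA loci and dashed limits at 2 and -2. Nppa and Npr3 lie in the lower tail on the right, Corin lies just above 2 there, and no gene passes a limit on the left.

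In order of level, the genes ran Nppa, Nppb, Npr3, Corin, Npr1, Npr2 and Nppc at E10.5. At E13.5 the order differed only in Npr1 and Npr2, which were 1.10-fold apart. In the adult it was Nppb, Corin, Nppa, Npr2, Npr1, Npr3 and Nppc. Nppb lay 2.78-fold above Corin there, and Corin lay 1.87-fold above Nppa. Without replicates it cannot be said which neighbours in this order differ beyond their spread.

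The other genes of the pathway were taken as a list of 25, of which 17 reached 1 FPKM in a library. From E10.5 to E13.5, 0 of the 17 changed past 2. From E10.5 to the adult, 1 rose and 2 fell, where 5.59% of mRNA loci rose and 8.10% fell, so the counts lie near the background. The median was -0.64 beside -0.40 for all mRNA loci, and the same 3 genes passed the limit from E13.5 to the adult. Pde2a, a phosphodiesterase that breaks down cyclic nucleotides and is activated by cyclic GMP, rose from 3.18 FPKM at E10.5 and 2.63 at E13.5 to 19.9 in the adult. Vasp, an actin regulator phosphorylated by the cyclic GMP-dependent kinase, fell from 48.2 and 50.1 FPKM to 8.02. Dpp4, a peptidase that can trim BNP, fell from 9.52 and 11.3 FPKM to 1.30. Nos2, the inducible nitric oxide synthase, stood at 0.0798, 0.0490 and 2.66 FPKM, and its changes to the adult were 1.80 from E13.5 and 1.76 from E10.5. They passed 2 under each other scaling and with a pseudocount of 0.1, up to 4.21 and 3.94. Nos3, another nitric oxide synthase of the list, went the other way, at 18.4, 14.4 and 4.77 FPKM. Its changes to the adult were -1.42 from E13.5 and -1.75 from E10.5, short of the limit, and it stayed above Nos2 in every library. With median-of-ratios scaling, Dpp4 passed the limit in neither comparison, and Vasp passed it from E10.5 only.

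Along the path from precursor to response, most of the other genes stayed within the limit, as did most mRNA loci. Furin, the protease that cuts the BNP and CNP precursors, stood at 13.3 FPKM (E10.5), 6.60 FPKM (E13.5) and 8.86 FPKM (adult). Pcsk6, the protease that activates Corin, stood at 13.7, 5.52 and 9.01 FPKM, so it did not share the adult rise of Corin past the limit. Neprilysin (Mme), which degrades the peptides beside Npr3, stood at 11.7, 4.44 and 3.04 FPKM. Prkg1, the cyclic GMP-dependent kinase of muscle, stood at 28.4, 16.8 and 16.1 FPKM, while Prkg2 stayed below 1 FPKM. Ostn, whose product osteocrin binds Npr3, reached 0.0545 FPKM in the adult and was otherwise listed at 0.

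Cyclic GMP also comes from the soluble cyclase that nitric oxide activates. Its subunit genes Gucy1a3 (29.0, 29.3 and 13.1 FPKM) and Gucy1b3 (27.9, 39.5 and 12.1 FPKM) stood above both cyclase receptors in the embryonic libraries. In the adult they also stood above Npr2 (7.80 FPKM) and Npr1 (4.65 FPKM), and lay close to the sum of these receptors, 12.4 FPKM. The other membrane cyclases (Gucy2c, Gucy2d, Gucy2e, Gucy2f and Gucy2g) stayed below 1 FPKM in every library. Npr1 and Npr2 were therefore the only membrane guanylyl cyclases of the list above that level.

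**Figure D5:**
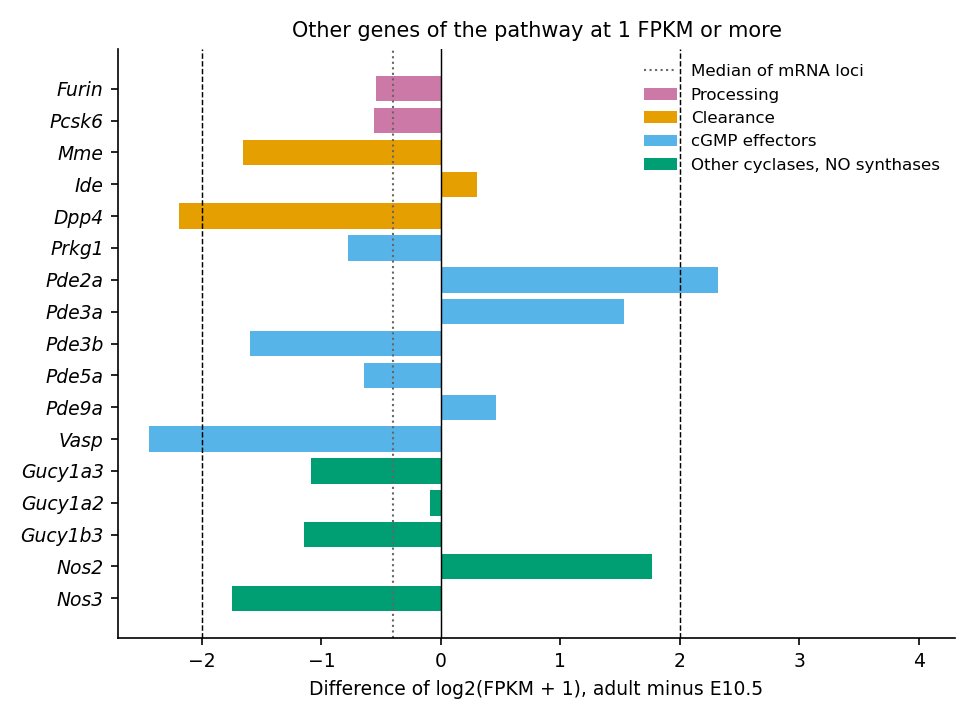
Difference of log2(FPKM + 1) between adult and E10.5 for the 17 other pathway genes at 1 FPKM or more in a library, coloured by role, with dashed limits at 2 and -2 and a dotted line at the median of mRNA loci (-0.40). Pde2a passes the upper limit, and Dpp4 and Vasp pass the lower one.

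Of 13 factors known to act on peptide genes, all at 1 FPKM or more, 0 rose and 2 fell past 2 from E10.5 to the adult, where 8.10% of mRNA loci fell. The median was -1.15 beside -0.40 for all mRNA loci. Those that fell were Nkx2-5 (46.8, 61.1 and 9.37 FPKM) and Hand1 (26.2, 7.36 and 0.0308 FPKM). From E13.5 to the adult these 2 and Hand2 fell, where 9.88% of mRNA loci fell. With median-of-ratios scaling, the median was -0.76 and only Hand1 passed the limit from E10.5.

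By Euclidean distance over log2(FPKM + 1) in the 3 libraries, the mRNA locus most like Npr3 was Col18a1, a basement membrane collagen, at 93.0, 50.1 and 1.74 FPKM (distance 0.12). Lmnb1, a nuclear lamin, and Casq1, a calcium-binding protein of muscle, followed at 0.36 and 0.59. The loci nearest to Nppa were farther off. They were the joined histone loci Hist1h4d/Hist1h4h (1.32) and Hist2h2bb/Hist2h3b (1.66), with Tubb5, a tubulin, between them (1.64). The nearest to Nppb were the joined loci Myl12a/Myl12b (0.17) and Itgb1bp2/Nono (0.19), then Ndufa7 (0.21). The nearest to Npr1 were Atg2a (0.09), Rasgrp2 (0.10) and Fam125b (0.11). With levels centred on each locus's own mean, Col18a1 stayed among the 3 nearest to Npr3, while 0 of the 3 stayed for Nppa, Nppb and Npr1.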

How the data were processed

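Total RNA of mouse ventricle was sequenced as 1 paired-end library per stage, and samples were grouped by the stage in the labels. Per the study's methods, the authors used TopHat2 for mapping on mm10, and Cufflinks both with UCSC annotation and without it for assembly. The authors deposited FPKM values per merged locus and library, with the exons of the merged transcripts. Tool versions and options, the treatment of multiply mapped fragments and of strand, and the sharing of fragments between transcripts are not given in the sources used here. FPKM values are not counts, so no count test was run, and with 1 library per stage no test was run at all.

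Members were matched by gene name and joined to the table by locus identifier. Of the 48626 loci, 9 without annotation were not used. An mRNA locus had a transcript matching a RefSeq protein-coding one (20117 loci), and the 12569 at 1 FPKM or more in a library served as background. Changes used a pseudocount of 1. Approximate fragments were FPKM times the RefSeq or assembled length times a depth read from the lowest steps of unspliced loci. They are blurred by any length correction and cover no variation between animals. An exact 0 can be a failed estimate and is given as listed at 0. Deposited coordinates and GRCm38.p6 share 104 of 104 introns of the members' RefSeq transcripts (100%). Sequences are from RefSeq, and all 7 genes matched the promoter table. Code was tested on simulated data. Alternatives were 3 rescalings, a pseudocount of 0.1, a change limit of 1, other filters and centred distances. Python 3.11.15, pandas 2.3.3, numpy 2.4.6 and pysam 0.24.0 were used.

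The named genes were the 7 members, the pathway lists (with values for those past the limit), the 3 mRNA loci nearest in pattern to each of Nppa, Nppb, Npr1 and Npr3, and loci within 10 kb of a member. Further list genes and markers were named after their values were seen. Members and lists were chosen with earlier results of these data known.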

Additional observations from a re-analysis of the deposited data

How the results depend on the processing

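No paired analysis was possible because only 1 library stands for each stage, and for the same reason no library could be left out. Depth limits Nppc and the antisense locus of Corin, which rest on about 15.1 and 20.1 fragments at most. Of 84 recomputed changes of the 6 genes with a value and the antisense locus, 80 moved by less than 1.5-fold. The other 4 belong to the antisense locus, whose change to the adult was 1.02 from E13.5 and 0.95 from E10.5 as reported, 1.92 and 1.67 with all mRNA loci scaled to 1 common sum, and 2.64 and 2.30 with a pseudocount of 0.1. Nppa, Npr3 and Corin stayed past the limit of 2 in both comparisons with the adult under every scaling and pseudocount tried, and their changes from E10.5 ranged over scalings from -5.49 to -5.08, from -5.29 to -4.64 and from 2.04 to 2.45. With a change limit of 1, 2 members rose from E10.5 to the adult, Npr2 joining Corin, and 2 fell, as at the limit of 2. The share of mRNA loci past 1 was not computed, but 11.9% rose further than Npr2 in this comparison. Among pathway genes, both versions of median-of-ratios scaling gave 2 genes higher with 0 lower against E13.5, and 2 higher with 1 lower against E10.5, while scaling mRNA loci to 1 common sum and a pseudocount of 0.1 each gave 2 higher. Among mRNA loci, median-of-ratios scaling gave 48 lower from E10.5 to E13.5 and turned the balance from E13.5 to the adult to 896 higher and 769 lower, from 554 and 1242 as reported. A pseudocount of 0.1 gave 331 higher and 128 lower from E10.5 to E13.5, 977 and 2039 from E13.5 to the adult, and 1225 and 1696 from E10.5 to the adult.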

Other observations

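Within 10 kb upstream of Npr1, 2 unspliced loci without a RefSeq match lay on the opposite strand, 628 bp and 2252 bp from its start. The nearer stood at 0 FPKM at E10.5 and 0.0594 at E13.5, compared with 0.677 in the adult, and the farther at 0.170, 0 and 1.52, while Npr1 itself stood at 3.46, 3.38 and 4.65 FPKM. The median of all 22805 such unspliced loci was 0.165, 0.0688 and 0.768 FPKM, so loci of this kind were higher in the adult library in general.

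Next to Npr2, Hint2, a mitochondrial enzyme gene, stood at 15.3, 42.8 and 47.3 FPKM, and Spag8, which overlaps Npr2 on the other strand, stood at 0.252, 0.264 and 0 FPKM. Next to Corin, Nfxl1 stood at 16.7, 10.8 and 8.22 FPKM and Atp10d, a lipid flippase gene, at 6.21, 1.33 and 4.13 FPKM. Both were highest at E10.5, while Corin was highest in the adult at 70.8 FPKM. An unspliced locus without a RefSeq match, 546 bp upstream of Corin on the opposite strand, was also highest in the adult. It stood at 0.153, 0.175 and 1.31 FPKM, and loci of this kind were higher in the adult library in general.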
